A study of Drosophila melanogaster with 19 samples.

Results

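The genes described here hold chromosomes together until the meiotic divisions of *Drosophila melanogaster* males, or let them part. They were chosen by symbol as *SMC1*, *ord*, *tef*, *mei-S332*, *Sse*, *thr* and *pim*, and all 7 symbols have a row among the 12810 genes of the table. RNA was sequenced from germ cell cysts picked one by one out of the testis. A cyst is a clone of germ cells that develop in step within a wrapping of somatic cells. The labels give 2 libraries of the niche (the testis tip that houses germline stem cells), 2 of the gonialblast (GB, the stem cell daughter), 2 of 4-cell spermatogonia (S4), 2 of 8-cell spermatogonia (S8) and 1 of 16-cell spermatogonia (S16). Spermatocytes, the cells that grow for a long time before they divide in meiosis, gave 3 early libraries (EC) and sets of 3 (LC1) and 2 (LC2) late libraries, which the labels do not tell apart beyond their names. A final set of 2 libraries (aly) came from spermatocytes arrested by a mutation of *always early*, a gene that late spermatocyte transcription requires. The labels name neither the *aly* allele nor the strain, genotype or age of the other flies, and they name no treatment. They do not say that libraries came from separate animals, so p-values measure only the spread between these samples, which may be technical.

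Sister chromatids are held by cohesin, a ring built around a pair of SMC proteins. Separase opens that ring at anaphase, and securin blocks separase until the anaphase-promoting complex destroys the securin. In *Drosophila* the separase is made of separate proteins, Sse and Thr, and the securin is Pimples (Pim). Male flies undergo meiosis without crossing over, and homologues are joined by dedicated conjunction proteins instead, among them the product of *teflon* (*tef*).

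Values are RPKM, reads scaled to gene length and library size, and so are already per length. The deposited table holds the authors' mean for each stage, and whole reads of each library were worked out from those means. The LC2 mean is built from 3 libraries although 2 are labelled. Libraries carry no replicate number and are lettered a, b and c from the largest effective size to the smallest. Depth ran from 803183 recovered reads in S16 to 5078456 in aly a, and 3 reads in a gene of 1 kb correspond to 0.612 to 3.22 RPKM. No gene exceeded 1 read per base in any library, so the highest values may lie closer together than the RNA did. In LC2 b, *pim* stood at 78.4% of that limit. The mutated gene *aly* was read at 33.4 and 30.4 RPKM in the aly libraries, 138, 109 and 63.0 for EC, 57.9, 70.2 and 65.3 for LC1 and 61.9, 42.3 and 48.9 for LC2. The allele is not named, so an RNA level checks nothing about the label. Summed germline markers were 493 to 542 RPKM in EC libraries, 259 to 311 for LC1, 143 to 169 for LC2 and 271 to 287 in aly. Of these, *vas* was read in every stage, at 129 RPKM in EC, 14.4 for LC1, 4.62 for LC2 and 7.19 in aly. *nos* and *bgcn* were highest in EC (42.8 and 122 RPKM). *bam* was highest in S8 (165 RPKM), and at 37.8 in EC and 43.1 in aly. *can*, a spermatocyte gene, was at 0 from the niche to S16 and at 80.5 RPKM in EC. Before EC, *aly* was at 22.3 and 42.2 RPKM in the GB libraries, at 0.619 and 0 in the niche, and at 0 in S4, S8 and S16. Summed cyst cell markers were 20.9 to 43.7 RPKM in EC libraries, 58.1 to 96.8 for LC1, 33.2 to 48.4 for LC2 and 31.9 to 37.0 in aly. Summed hub markers were 1.02 to 3.98, 25.3 to 57.8, 18.4 to 32.7 and 3.63 to 10.2 in the same order, with 23.4 to 105 in the niche. Summed haemocyte and fat body markers were 5.46 to 10.8 for EC, 16.8 to 32.1 for LC1, 67.9 to 149 for LC2 and 50.7 to 51.9 in aly, and 34.0 to 153 for S4, S8 and S16. Summed muscle markers were 0 to 1.34 for EC, 8.87 to 20.1 for LC1, 0.594 to 4.15 for LC2 and 8.56 to 17.2 in aly. Before EC they were 19.6 and 85.9 for GB, 114 and 35.3 for S4, 62.95 and 60.8 for S8, and 1.22 for S16. Single markers did not all move with their sums. From EC to LC1 and LC2, *tj* went from 7.88 to 1.21 and 0.458 RPKM. The other cyst cell markers, *zfh1* and *eya*, went from 10.6 to 27.0 and 15.2 and from 10.5 to 47.6 and 24.3. *Yp3* was at 140 RPKM in S4, where *Yp1* and *Yp2* were at 0, and *Lsp1beta* was at 95.25 in LC2. The part of these somatic cells in the results below was not tested. A lower level in RNA of whole cysts cannot tell fewer cells of a type from less RNA per cell.

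Differences between stages are log2 differences of RPKM + 1 with their SE, from a limma fit to 12412 genes with Benjamini-Hochberg adjustment. A gene passed at an adjusted p under 0.05 with at least 8 RPKM on the higher side. Spermatogonia stand for S4, S8 and S16 together, and late spermatocytes for LC1 and LC2 together. Steps among the niche, GB and the spermatogonial stages are described by values alone.

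Between early and late spermatocytes the 7 genes parted. *Sse*, *SMC1* and *tef* fell, *pim* rose, and *mei-S332*, *ord* and *thr* did not pass the test. Thus 4 of 7 passed, where 43.2% of all genes did, 23.1% higher and 20% lower. Of all calls 53.6% were higher, and 39.9% under quantile scaling. Between spermatogonia and early spermatocytes *pim* alone passed, and it fell. That is 1 of 7, where 29.2% of all genes passed, 22.2% higher and 7.0% lower. Of all calls 76% were higher, and 58% under quantile scaling. Libraries from the niche to S16 stood apart, with 6835 to 7763 genes read against 10015 to 12349 in EC, LC1, LC2 and aly, and the part of this gap in the comparison of EC with spermatogonia was not tested. The median log2 difference of the 7 was -0.16 in that comparison, against 0.48 over all genes tested, and 0.15 in late against early spermatocytes, against 0.12 over all genes.

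**Figure D1:**
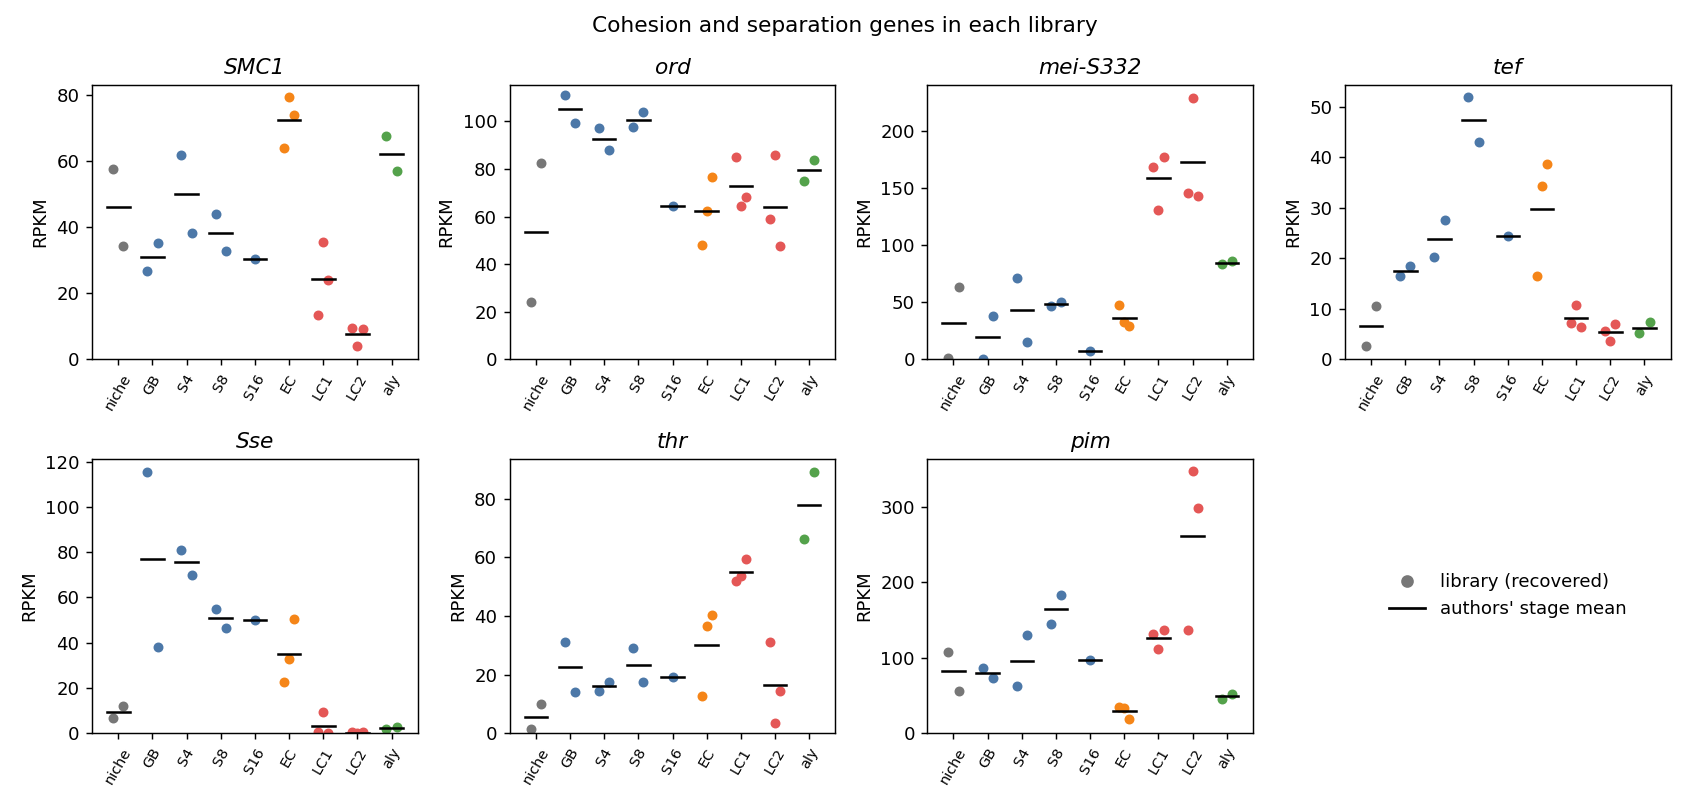
RPKM of the 7 genes in each stage, on linear axes that start at 0; each point is a library and each bar is the authors' mean of the stage. The means of *Sse* are 3.27 RPKM in LC1, where LC1 b is at 9.15, 0.235 in LC2 and 2.2 in aly. The means of *pim* and *mei-S332* are highest in LC2, and those of *ord* stay between 53.4 and 105 RPKM in all 9 stages.

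The ring itself was represented by *SMC1* (FBgn0040283; 3R:24058287-24062815, plus strand), a core subunit of cohesin. It stood at 57.6 and 34.4 RPKM in the niche, 26.6 and 35.1 for GB, 61.8 and 38.3 for S4, 43.9 and 32.7 for S8, and 30.2 for S16. It was at 63.7, 79.2 and 73.8 RPKM in EC, 13.6, 35.5 and 23.9 for LC1, and 9.51, 4.20 and 9.15 for LC2, with 67.4 and 57.0 in aly. EC and aly were the highest stages and their libraries overlapped. All 6 late libraries lay below all EC and aly libraries, and LC2 lay wholly below LC1. *SMC1* fell by 2.24 ± 0.35 on the log2 scale from early to late spermatocytes (adjusted p = 7.49e-05, limma). It was 0.83 ± 0.36 higher in EC than in spermatogonia, which did not pass (adjusted p = 0.0827, limma). In LC2 against LC1 it fell by 1.53 ± 0.40 (adjusted p = 0.0412, limma), the only 1 of the 7 to pass there, where 4.46% of all genes did, 1.13% higher and 3.34% lower. Of all calls 25.3% were higher, and 45.8% under quantile scaling. That call was lost without LC1 b (-1.21, adjusted p = 0.171), LC1 c (-1.49, 0.127), LC2 b (-1.20, 0.175) or LC2 c (-1.68, 0.0861).

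*ord* (FBgn0003009; 2R:23271257-23275536, minus strand) encodes a protein needed for sister chromatid cohesion in meiosis of both sexes. Its libraries gave 24.3 and 82.6 RPKM in the niche, 111 and 99.4 for GB, 97.1 and 88.1 for S4, 97.6 and 104 for S8, and 64.3 for S16. Spermatocytes gave 48.1, 62.2 and 76.5 RPKM in EC, 85.3, 64.6 and 68.3 for LC1, 59.1, 85.9 and 47.8 for LC2, and 75.0 and 84.0 in aly. The 3 EC, 3 LC1 and 3 LC2 libraries overlapped, and GB, S4 and S8 were the highest stages. The highest stage mean was only 1.97 times the lowest. A ratio this small or smaller was found in 0.785% of the 10579 genes that reach 8 RPKM in some stage, whose median ratio was 9.18 among the 6280 read in every stage. No comparison passed for *ord*. Its difference was -0.53 ± 0.33 for EC against spermatogonia (adjusted p = 0.222, limma), which passed under quantile scaling (-0.88, adjusted p = 0.0262), and 0.15 ± 0.32 in late against early spermatocytes (adjusted p = 0.733).

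*tef* (FBgn0086350; 2R:17054546-17056835, minus strand) encodes a zinc finger protein that keeps autosomal homologues paired in male meiosis. It was read at 2.60 and 10.6 RPKM in the niche, 16.5 and 18.5 for GB, 20.3 and 27.5 for S4, 51.9 and 43.0 for S8, and 24.4 for S16. EC libraries gave 16.6, 34.3 and 38.7 RPKM, LC1 gave 7.30, 10.8 and 6.44, LC2 gave 5.53, 3.70 and 7.10, and aly gave 5.19 and 7.33. S8 stood above every other stage with no overlap. The 6 late and 2 aly libraries all lay below the lowest EC library. *tef* fell by 1.90 ± 0.41 on the log2 scale between EC and late spermatocytes (adjusted p = 0.0012, limma). EC differed from spermatogonia by -0.16 ± 0.42 (adjusted p = 0.821), and LC2 from LC1 by -0.52 ± 0.47 (adjusted p = 0.612).

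*mei-S332* (FBgn0002715; 2R:22122101-22124566, plus strand) encodes the fly shugoshin, which shields cohesion at the centromere until the second meiotic division. In early stages its libraries disagreed, with 0.824 and 63.4 RPKM in the niche, 0.550 and 38.3 for GB and 71.6 and 15.02 for S4. The low niche and GB libraries held 2 reads each. S8 gave 47.1 and 49.97 RPKM and S16 gave 7.57 from 12 reads. In spermatocytes the libraries lay closer, at 47.5, 32.6 and 29.4 RPKM in EC, 168, 131 and 178 for LC1, 146, 229 and 143 for LC2, and 83.9 and 85.9 in aly. All 6 late libraries stood above both aly libraries, which stood above all 3 EC libraries. Late spermatocytes differed from early ones by 2.15 ± 0.98 on the log2 scale, which did not pass (adjusted p = 0.0807, limma). The difference passed with a pseudocount of 4 (2.06, adjusted p = 0.0282, limma) and under quantile scaling (2.12, adjusted p = 0.0188). It also passed in a fit of EC, LC1, LC2 and aly alone (2.15 ± 0.22, adjusted p = 9.39e-06). That fit leaves out the discordant early libraries and was chosen after the data were seen. *mei-S332* shares 100 exon bases with *Vrp1* on the opposite strand, which stood at 37.6, 115.3, 62.5 and 94.0 RPKM in EC, LC1, LC2 and aly. The counting strand is not given in the sources used here, so reads of the shared bases cannot be assigned to either gene.

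*mei-S332* and *ord* are both needed for meiotic cohesion, and the ratio of their values differed between early and late spermatocytes. The values rest on lengths of 1703 bases for *mei-S332* and 2656 for *ord*, where the annotation used here gives *ord* 3915 exon bases. Only the change of the ratio between stages can therefore be read, not which gene had more RNA. The ratio of *mei-S332* to *ord* was 0.586 from the EC stage means, 2.19 for LC1, 2.69 for LC2 and 1.07 in aly. The library ratios were 0.385 to 0.987 for EC, 1.98 to 2.60 for LC1, 2.48 to 2.99 for LC2 and 1.02 to 1.12 in aly, so that the ranges of EC, aly and late libraries did not overlap.

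**Figure D2:**
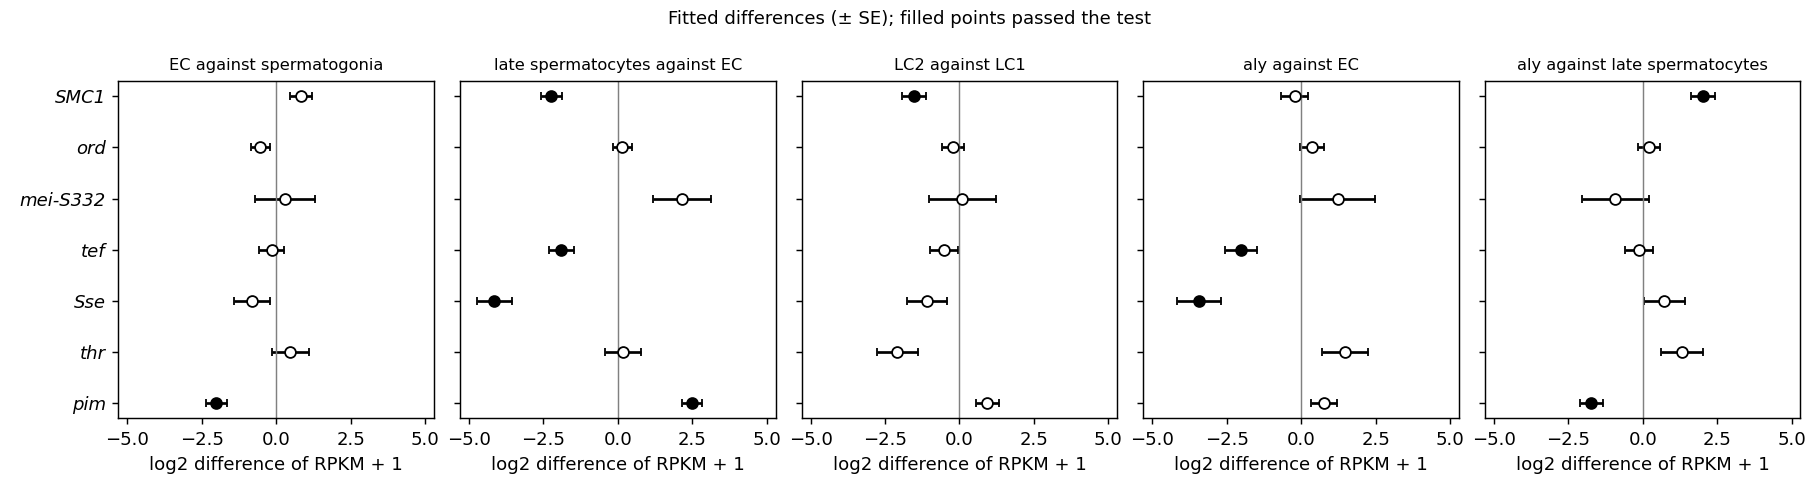
Fitted log2 differences of RPKM + 1 (points) with their SE (bars) for the 7 genes in 5 comparisons, from limma; filled points passed at an adjusted p under 0.05 with at least 8 RPKM on the higher side. In late against early spermatocytes *Sse* lies at -4.16 and *pim* at 2.50, and *ord* lies between -0.53 and 0.37 in the 5 panels.

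*Sse* (FBgn0035627; 3L:5659700-5662247, minus strand) encodes the protease subunit of separase. It stood at 6.77 and 12.2 RPKM in the niche, 116 and 38.2 for GB, 81.1 and 70.2 for S4, 54.9 and 46.5 for S8, and 49.9 for S16. EC libraries gave 22.7, 32.6 and 50.3 RPKM. In LC1 it was at 0.410, 9.15 and 0.256 RPKM, which are 3, 65 and 1 reads, and in LC2 at 0.314, 0 and 0.391, which are 2, 0 and 1 reads. The aly libraries gave 1.87 and 2.56 RPKM from 20 and 19 reads. GB and S4 were the highest stages, and every late and aly library lay below every EC library, with LC1 b the highest of the late ones. *Sse* fell by 4.16 ± 0.59 on the log2 scale between EC and late spermatocytes (adjusted p = 2.66e-05, limma). In EC against spermatogonia the difference was -0.81 ± 0.60 (adjusted p = 0.321, limma), which passed under quantile scaling (-1.48, adjusted p = 0.0162). LC2 and LC1 differed by -1.10 ± 0.67 (adjusted p = 0.41).

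*thr* (FBgn0003701; 2R:17861273-17865963, minus strand) encodes the partner of Sse in separase. It was read at 1.31 and 9.90 RPKM in the niche, 31.0 and 13.98 for GB, 14.6 and 17.6 for S4, 29.1 and 17.4 for S8, and 19.3 for S16. EC gave 12.7, 36.7 and 40.5 RPKM, LC1 gave 51.8, 53.5 and 59.4, LC2 gave 31.2, 3.62 and 14.3, and aly gave 66.2 and 89.3. Aly stood above LC1 and LC1 above EC, each with no overlap, and LC2 overlapped EC and the spermatogonia. Late against early spermatocytes differed by 0.17 ± 0.60 on the log2 scale (adjusted p = 0.842, limma), which joins an LC1 mean above that of EC with an LC2 mean below it. All 3 LC2 libraries lay below all 3 LC1 libraries, and the fitted difference of -2.08 ± 0.69 did not pass (adjusted p = 0.0950, limma). It passed without LC2 a (-2.73, adjusted p = 0.0287) and in the fit of EC, LC1, LC2 and aly alone (adjusted p = 0.0447). That fit was chosen after the data were seen, and more of all genes passed in it than in the main fit, as counted below. *thr* shares 263 exon bases with *CG14490* on the opposite strand, which stood at 6.07, 3.98, 3.10 and 76.4 RPKM in EC, LC1, LC2 and aly. *CG14490* was above *thr* itself in the niche (14.1 RPKM), S4 (29.2) and S16 (36.2), and the shared reads cannot be assigned in any stage.

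*pim* (FBgn0003087; 2L:10362989-10364092, plus strand) encodes securin. Its libraries gave 108 and 56.0 RPKM in the niche, 86.4 and 72.8 for GB, 62.4 and 130 for S4, 145 and 184 for S8, and 96.9 for S16. EC gave 35.1, 33.1 and 18.9 RPKM, LC1 gave 131, 112 and 137, LC2 gave 137, 348 and 299, and aly gave 45.7 and 52.2. EC was the lowest stage, and its libraries lay below those of every other stage. *pim* fell by 2.01 ± 0.35 on the log2 scale from spermatogonia to EC (adjusted p = 0.000281, limma). It then rose by 2.50 ± 0.34 from early to late spermatocytes (adjusted p = 1.65e-05, limma). These comparisons share the EC libraries. LC2 exceeded LC1 by 0.94 ± 0.39, which did not pass (adjusted p = 0.182, limma) but did without LC2 a (1.35, adjusted p = 0.0365).

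LC2 held the highest stage mean of *pim* and the lowest of *Sse*. The ratio of *pim* to *Sse*, taken from stage means, was 1.03 for GB, 1.27 for S4, 3.24 for S8, 1.94 for S16 and 0.825 for EC. It was 38.7 for LC1, where libraries ranged from 12.2 to 535, and 1112 for LC2. Of the 3 LC2 libraries only 2 held *Sse* reads, and their ratios of 436 and 764 rest on 1 or 2 reads of *Sse*. The aly ratio was 22.1, and its libraries gave 20.4 and 24.4. Late and aly ratios were above the EC range of 0.376 to 1.55 in every library with a value.

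The ratio of the separase subunit genes changed too, as *Sse* fell from early to late spermatocytes while *thr* did not pass the test. The ratio of *thr* to *Sse* was 0.293 for GB, 0.212 for S4 and 0.851 for EC, where libraries ranged from 0.559 to 1.13. It was 16.8 for LC1, where libraries ranged from 5.85 to 233 and LC1 b held 65 of the *Sse* reads. The top of that range, in LC1 c, rests on 1 read of *Sse*. The ratio was 69.7 for LC2, with 36.6 and 99.5 in the 2 libraries that held *Sse* reads, 1 and 2 of them. In aly it was 35.1, with 34.9 and 35.3, and the reads that *thr* shares with *CG14490* cannot be assigned there. Every late library with a value lay above every EC library.

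**Figure D3:**
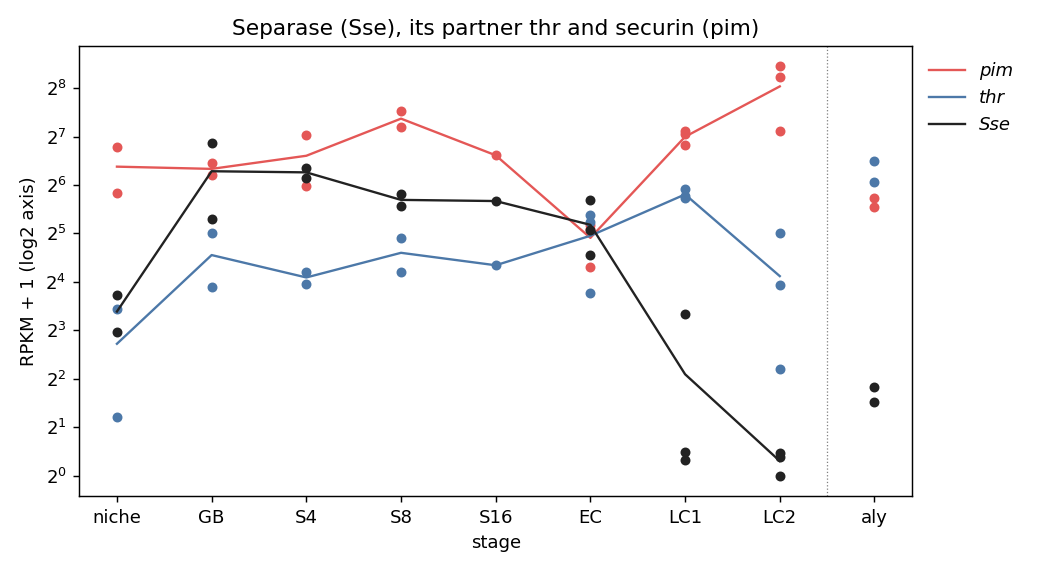
RPKM + 1 of *pim* (securin), *thr* and *Sse* (separase subunits) on a log2 axis by stage; points are libraries, lines join stage means from the niche to LC2, and aly stands apart. The curves meet in EC, where the stage means are 29.0, 30.0 and 35.2 RPKM, and spread in LC1 and LC2.

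In the *aly* mutant spermatocytes *Sse* and *tef* were lower than in EC, while *SMC1* was higher and *pim* lower than in late spermatocytes. Against EC, *Sse* fell by 3.43 ± 0.75 on the log2 scale (adjusted p = 0.00437, limma) and *tef* fell by 2.02 ± 0.53 (adjusted p = 0.0128). These were 2 of 7, where 15.5% of all genes passed, 8.45% higher and 7.07% lower. Of all calls 54.4% were higher, and 64.5% and 48.7% under total and quantile scaling. The *Sse* call was lost without aly a (-3.28, adjusted p = 0.0619), and the *tef* call without aly a (-1.80, adjusted p = 0.144) or aly b (-2.23, adjusted p = 0.0563). Against late spermatocytes, *SMC1* was higher in aly by 2.02 ± 0.41 (adjusted p = 0.00096, limma) and *pim* was lower by a difference of -1.72 ± 0.39 (adjusted p = 0.00239). These were again 2 of 7, where 30.9% of all genes passed, 13.3% higher and 17.6% lower. Of all calls 43.2% were higher, and 62.1% and 61.6% under total and quantile scaling. Both comparisons use the same aly libraries, and the first shares its EC libraries with the comparison of late and early spermatocytes.

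The remaining aly differences did not pass. *SMC1* differed from EC by -0.21 ± 0.45 (adjusted p = 0.814, limma) and *pim* by 0.78 ± 0.43 (adjusted p = 0.238). *Sse* differed from late spermatocytes by 0.73 ± 0.68 (adjusted p = 0.437, limma) and *tef* by -0.12 ± 0.48 (adjusted p = 0.88). A p above the threshold does not show equal levels. *thr* was higher in aly than in late spermatocytes by 1.31 ± 0.70 (adjusted p = 0.155, limma), and this passed under quantile scaling (2.0, adjusted p = 0.0303). *mei-S332* lay between EC and late spermatocytes, 1.23 ± 1.26 above EC (adjusted p = 0.572, limma) and -0.92 ± 1.13 from late spermatocytes (adjusted p = 0.565). Both of these differences passed in the fit of EC, LC1, LC2 and aly alone (adjusted p = 0.00774 and 0.0107, limma), which was chosen after the data were seen. In aly against EC more of all genes passed in that fit than in the main fit, as counted below. *ord* differed by 0.37 ± 0.41 from EC and by 0.22 ± 0.37 from late spermatocytes (adjusted p = 0.611 and 0.69, limma).

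The other genes of each process were counted in lists chosen by function. Of cohesin core genes and regulators, 10 of 11 with a row were tested. The untested gene, *san*, is not among those whose reads were recovered in every library. Its stage means were 210 RPKM in EC, 151 for LC1 and 257 for LC2. From spermatogonia to EC 5 rose and 1 fell, with a median log2 difference of 0.86 against 0.48 over all genes tested, of which 22.2% rose and 7.0% fell. Under quantile scaling 2 rose and 1 fell. The largest differences that passed were a fall of *CG4203* (*Mau2*, part of the cohesin loader; -2.26, adjusted p = 0.0343, limma) and rises of *wapl* (the cohesin release factor; 1.94, adjusted p = 0.000799), *Cap* (*SMC3*, the partner of SMC1; 1.45, adjusted p = 0.0204) and *Nipped-B* (the loader; 1.45, adjusted p = 0.00123). The rises of *wapl* and *Cap* did not pass under quantile scaling (0.75 and 0.78, adjusted p = 0.126 and 0.102).

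From early to late spermatocytes 7 of the 10, *SMC1* among them, fell and none rose. Over all genes 23.1% rose and 20% fell. The list median was -1.06 against 0.12 over all genes, and 7 and 8 fell when libraries were scaled to their totals or by quantiles. *Cap* stood at 14.1 RPKM in GB, 51.8 for EC, 8.52 for LC1 and 2.16 for LC2, and it fell by 3.27 ± 0.45 from early to late (adjusted p = 1.94e-05, limma). *CG4203* (-2.50, adjusted p = 0.0132) and *pds5* (a cohesin regulator; -1.70, adjusted p = 0.000199) fell too. In aly against late spermatocytes 5 of the 10 were higher and none lower, *SMC1* and *Cap* included, where 13.3% of all genes were higher and 17.6% lower. The number higher was 8 under either rescaling.

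The list of meiotic cohesion and homologue conjunction genes held 8 with a row, *ord* and *tef* among them. It also holds *c(2)M* and *c(3)G*, genes of the synaptonemal complex of female meiosis, a structure that male flies do not build. From spermatogonia to EC 2 fell and none rose, where 7.0% of all genes fell and 22.2% rose, and 4 fell under quantile scaling. The list median was -0.06 against 0.48 over all genes. The 2 were *CG32088* (*sunn*, a cohesin-like protein of fly meiosis), at 3.90 RPKM in EC against 23.9 (-2.01, adjusted p = 0.0248, limma), and *mod(mdg4)* (-0.94, adjusted p = 0.00925). The *mod(mdg4)* row covers all isoforms of that locus, of which the conjunction protein is only 1. From early to late spermatocytes 3 fell and none rose, where 20% of all genes fell and 23.1% rose, with a median of -0.17 against 0.12. *SA-2*, which encodes a stromalin of the male conjunction complex, went from 88.1, 173 and 142 RPKM in EC to 15.8, 32.7 and 12.3 for LC1 and 13.99, 7.99 and 14.03 for LC2 (-2.99 ± 1.0, adjusted p = 0.021, limma). *tef* and *mod(mdg4)* (-1.25, adjusted p = 0.000628) were the others. *CG8712* (*uno*), the separase target that links homologues in males, was at 118 RPKM in EC, 210 for LC1, 251 for LC2 and 157 in aly. It passed in no comparison, with 0.93 ± 0.82 in late against early spermatocytes (adjusted p = 0.379, limma). Its late libraries, at 177 to 286 RPKM, all lay above its EC libraries, at 145, 109 and 100. The fit pools the variance of all groups, and the niche libraries gave 56.8 and 0 RPKM. The part of that spread in the result was not tested.

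**Figure D4:**
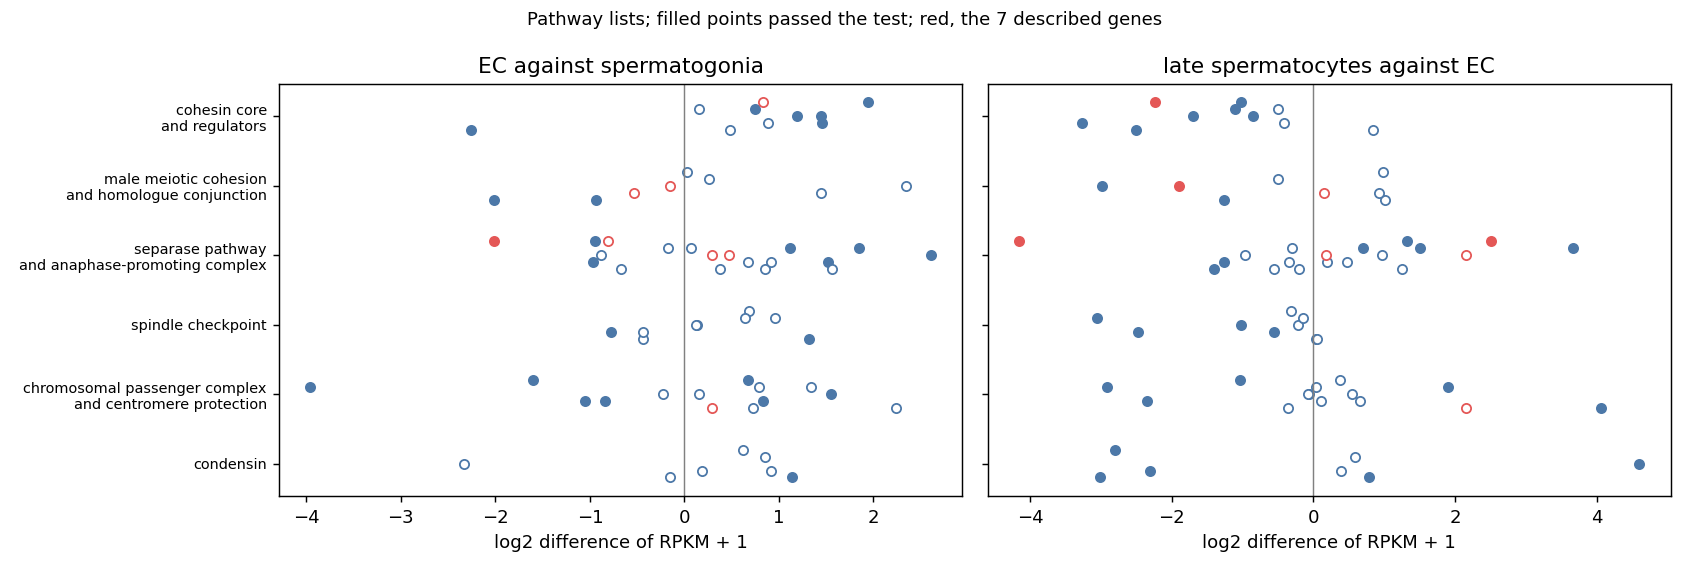
Fitted log2 differences of RPKM + 1 of the genes in 6 lists, for EC against spermatogonia and for late spermatocytes against EC; filled points passed the test and red points are the 7 genes described here. In late against early spermatocytes the cohesin points that passed all lie below 0, and in the list of the separase pathway points that passed lie on both sides.

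The separase pathway and anaphase-promoting complex list held 19 tested genes of 20. It counts *Sse*, *thr*, *pim* and also *mei-S332*, which is neither a separase nor a complex gene and is counted again in the centromere list. From spermatogonia to EC 4 rose and 3 fell, where 22.2% of all genes rose and 7.0% fell, and 3 rose and 6 fell under quantile scaling. The median was 0.37 against 0.48 over all genes. The largest differences were those of *Cdc27* (a subunit of the complex; 190 RPKM against 32.98, 2.61, adjusted p = 0.0102, limma), *pim* and *fzr2* (a testis activator of the complex; 1.85, adjusted p = 0.0017). The rise of *fzr2* did not pass under quantile scaling (0.30, adjusted p = 0.477). From early to late 5 rose and 3 fell, near the 23.1% and 20% of all genes, and under quantile scaling 5 rose and 6 fell. The median was 0.20 against 0.12 over all genes. *fzr2* rose from 15.5 to 205 RPKM (3.66 ± 0.39, adjusted p = 1.29e-06, limma), next to *Sse* and *pim*, and *Rca1*, an inhibitor of the complex, rose by 1.5 (adjusted p = 0.00991), which did not pass when libraries were scaled to their totals (1.13, adjusted p = 0.0613). In aly against late spermatocytes 4 of the 19 were higher and 3 lower, where 13.3% of all genes were higher and 17.6% lower. Among the lower ones, *fzr2* was at 19.1 RPKM in aly (-3.32, adjusted p = 2.29e-05, limma).

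The spindle checkpoint, which holds back the anaphase-promoting complex, gave 9 tested genes. From spermatogonia to EC *Bub1* rose (1.32, adjusted p = 0.0465, limma) and *Bub3* fell (-0.78, adjusted p = 0.00356), where 22.2% of all genes rose and 7.0% fell. The median was 0.14 against 0.48 over all genes. The rise of *Bub1* did not pass under either rescaling (adjusted p = 0.0749 and 0.072), and 2 fell and none rose under quantile scaling. From early to late 4 fell and none rose, where 20% of all genes fell and 23.1% rose, with a median of -0.32 against 0.12. They were *Mad1* (-3.05), *mit(1)15* (*Zw10*; -2.48), *rod* (-1.03) and *Bub3* (-0.56), with adjusted p from 8.77e-06 to 0.0204 (limma).

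The chromosomal passenger and centromere list, with *mei-S332*, gave 14. From spermatogonia to EC 3 rose and 4 fell, where 22.2% of all genes rose and 7.0% fell, and 1 rose and 4 fell under quantile scaling. The median was 0.48, as over all genes to 2 decimals. The centromeric histone *cid* fell from 97.8 to 3.99 RPKM (-3.96, adjusted p = 8.66e-06, limma). *ial*, the Aurora B kinase, fell by 1.60 (adjusted p = 0.00344) and *Det*, a passenger protein, by 1.06 (adjusted p = 0.00203), while *cal1*, which loads Cid, rose by 1.55 (adjusted p = 0.0495) and did not pass under either rescaling (adjusted p = 0.0928 and 0.236). Both *cid* and *ial* were already lower in the lone S16 library (16.7 and 68.3 RPKM) than in S4 (74.9 and 190) and S8 (161 and 200). In late spermatocytes 2 rose and 3 fell, where 23.1% of all genes rose and 20% fell, with a median of 0.07 against 0.12. *aust*, a testis form of a passenger protein, rose from 5.26 to 88.0 RPKM (4.07 ± 0.47, adjusted p = 3.4e-06, limma) and *cid* rose by 1.90 (adjusted p = 0.00259). The phosphatase PP2A works beside shugoshin, and its subunit genes *wdb* (-2.91, adjusted p = 0.00392) and *mts* (-2.35, adjusted p = 7.79e-07) fell. Of its other subunit genes on the list, *Pp2A-29B* fell (-1.04, adjusted p = 2.82e-05) and *PP2A-B'* (*wrd*) did not pass (0.04, adjusted p = 0.951).

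Condensin, the complex that compacts chromosomes, gave 7. From spermatogonia to EC *barr* rose (1.13, adjusted p = 0.00428, limma) and none fell, where 22.2% of all genes rose and 7.0% fell, with 1 up and 1 down under quantile scaling. In late spermatocytes 2 rose and 3 fell, where 23.1% of all genes rose and 20% fell, with a median of 0.39 against 0.12. *Cap-G* rose from 2.81 to 98.2 RPKM (4.60 ± 0.91, adjusted p = 0.000584, limma), whereas *CAP-D2* (-3.01), *SMC2* (-2.81) and *glu* (-2.30) fell (adjusted p = 0.000971, 0.000192 and 0.000106). *barr* rose by 0.79 (adjusted p = 0.0234), which did not pass under either rescaling (adjusted p = 0.289 and 0.172). In aly against late spermatocytes 3 were higher and 1 lower, where 13.3% of all genes were higher and 17.6% lower. The median was 1.19 against 0.06 over all genes. *Cap-G* was lower (-3.89, adjusted p = 0.00841, limma), and *glu* (2.26), *SMC2* (2.15) and *Cap-H2* (1.57) were higher (adjusted p = 0.000659, 0.00687 and 0.00539).

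Genes whose stage means ran most like those of each of the 7 were sought over the 9 stages among 10578 genes, by Pearson r of log2(RPKM + 1). These are descriptions of 9 points that share libraries, given without p. *Sse* had 150 genes at r of at least 0.9, led by *CG10341* (0.986) and *CG3251* (0.983). *SMC1* had 43, led by *CG8108* (0.980) and *cp309* (0.972), and *mei-S332* had 39, led by *cdc14* (0.978) and *CG17625* (0.964). *thr* had 31, with *CG33158* (0.948) and *Smc5* (0.945) first, and *tef* had 24, with *CG11123* (0.973) and *gammaTub23C* (0.962). *ord* had 11, but its nearest genes, *snoRNA:Me28S-U1848* (0.958) and *CG11370* (0.935), were at 0 in the niche, S16 and EC, where *ord* was at 53.4, 64.3 and 62.3 RPKM. *pim* had only 1 gene at this r, *CG12343* (0.906), followed by *Gem2* (0.90).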

How the data were processed

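The labels' protocols describe testes torn open in insect medium, cysts picked with a glass needle, and reverse transcription of mRNA from poly-dT primers with amplification of the cDNA. Bowtie 0.12.7 and edgeR stand in the submitters' processing notes without a stated purpose. Build, annotation, counting strand and handling of duplicates were not given in the sources used here. Deposited by the authors was 1 table of RPKM values per stage, called cRPKM in its title line without a gloss.

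Each stage value equals the plain mean, over libraries, of reads divided by gene length and an effective library size. Whole reads were recovered from these means for 12734 of 12810 genes in every library (99.41 to 99.44% of genes a library). The scale was set by 848 genes whose S16 value is a whole number of reads at the annotated exon length. This gave 20 libraries where 19 are labelled. The cDNA was amplified and carries no molecular identifiers, so reads may be copies of 1 molecule and floors of 3 reads cover counting error only.

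The fit used limma 3.58.1 (R 4.3.3) on log2(RPKM + 1), 9 group means, a variance trend (11 residual and 3.94 prior degrees of freedom) and the 12412 genes that had at least 1 RPKM in 2 libraries. Tests are two-sided. The lone S16 library is taken to vary as the other groups do. S4, S8 and S16 were weighted 2 to 2 to 1, and LC1 and LC2 3 to 2, by labelled libraries. The script was tested on simulated data. The genes, lists and tests were chosen with earlier results of these data known. All 7 genes are described. Of each list the text names genes in EC against spermatogonia and in late against EC. These are up to 4 a comparison, those with the largest difference among genes that passed. Genes with a role given as background, such as *CG8712*, are named too. *Cap*, *fzr2* and the condensin genes in aly were added after their values were seen. So were *san*, and *barr*, *Pp2A-29B* and *PP2A-B'* in late against EC. Lists were matched by the symbols of the table and by current symbols in a name table. Positions are from Ensembl BDGP6.54, which may not be the authors' build. Pseudocount, filter, scaling, minimum level and each library were varied. Python 3.11.15, numpy 2.4.6, pandas 2.3.3 and numba 0.67.0 were used.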

Additional observations from a re-analysis of the deposited data

How the results depend on the processing

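Across the 5 comparisons the 7 genes gave 504 differences under alternative settings. Of these, 486 kept their direction where called and their side of the threshold, 7 lost a call, 11 gained one and none with a call reversed. Of 63 stage values rescaled to the median of genes at 1 RPKM or more, 6 moved by more than the spread between libraries. The count over all genes in LC2 against LC1 was 554, but 851 with a pseudocount of 4, 1194 under quantile scaling and 1510 in the fit of EC, LC1, LC2 and aly alone, which was chosen after the data were seen. It ranged from 179 to 965 when a library was left out: 239, 241 and 179 without LC1 a, b and c, and 965, 222 and 186 without LC2 a, b and c. In aly against EC it was 1927, but 2908 under quantile scaling, 3242 in the fit of EC, LC1, LC2 and aly alone, and 708 to 2064 when a library was left out, with 708 without aly a and 1029 without aly b. In aly against late spermatocytes it was 3839, and 2361 to 3962 when a library was left out, with 2482 without aly a and 2361 without aly b. The cause of these shifts was not tested; fewer libraries leave fewer degrees of freedom. Quantile scaling moved the median gene by -0.715 in EC against spermatogonia and by -0.579 in late against EC. The shifts were 0.121 between LC2 and LC1, -0.318 between aly and EC, and 0.301 between aly and late. Total scaling shifted the same medians by -0.0912, -0.344, -0.233, 0.181 and 0.518. No paired analysis was possible because the recovered libraries carry no replicate numbers. Depth limits *Sse*, whose late values rest on 0 to 3 reads in 5 of 6 libraries.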
